A study of Danio rerio with 6 samples.

Results

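Contractile and myogenic genes were measured in whole zebrafish eyes. A gene was taken when the array annotation gave its probe set a single symbol that begins like the name of a sarcomere protein (myosin light or heavy chain, myosin-binding protein, actin of striated muscle, troponin, tropomyosin, alpha-actinin, titin, nebulin, desmin, muscle creatine kinase and a few Z-disc proteins) or of a myogenic regulator. This gave 61 of the 8793 genes named on the array, read by 79 probe sets. The 9 genes with several probe sets were represented by the brightest. By name and known function, 30 belong to the sarcomere of skeletal muscle, 9 to heart muscle, 7 are transcription factors of the muscle lineage, 10 are smooth muscle or non-muscle forms, and 5 share only the letters of the name or are mitochondrial creatine kinases.

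Wild-type embryos of the outbred SciH strain were kept from 48 to 75 hours post-fertilization (hpf) in 0.3 µM all-trans retinoic acid (RA) or in the carrier, 0.1% dimethyl sulfoxide (DMSO). They came from 3 clutches, each split between both treatments, so that there were 3 DMSO and 3 RA arrays, with 1 array per pool of 64 eyes. The samples of each treatment carry the numbers 1, 3 and 4, which were read here as the clutches. Embryos were frozen whole and their eyes dissected afterwards with fine forceps, so a pool holds the retina and lens together with whatever muscle, blood and connective tissue stayed attached. With RNA from such a pool, fewer muscle cells and less RNA per muscle cell cannot be told apart.

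The sarcomere is the repeating unit of striated muscle. Its thick filaments are built from myosin heavy chains that each carry an essential and a regulatory light chain, and its thin filaments from actin, tropomyosin and the calcium-sensing troponin complex of the subunits C, I and T. Skeletal and heart muscle use different members of these families, and fast and slow skeletal fibers differ again. The extraocular muscles that turn the eye are skeletal muscles that form from head mesoderm inside the periocular mesenchyme, and they begin to differentiate through the same transcription factors as other skeletal muscle: MyoD and Myf5, which commit cells to the lineage, myogenin, which drives their differentiation, and the Mef2 factors, which act with them on sarcomere genes and also serve in neurons and heart.

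Signals are linear array units. A signal was called above background when it exceeded 13.2, the highest value of 87 control probe sets without a target, and 49 of the 61 genes did so on at least 3 arrays while 8 lay at background on all 6. The median signal of an array was 39.5 to 43.5. The DMSO array of clutch 1 stood apart from the other DMSO arrays: among the 49 genes above background it lay farthest from the median of its group for 31 (63.3%), 15 of them high and 16 low, against 52.5% of the 6844 genes of the whole array that were above background. In the RA group the array of clutch 4 lay farthest for 22 of the 49 genes (44.9%), against 48.4% of all 6844, and the arrays of clutches 1 and 3 for 13 and 14. Of the marker genes for eye tissue that were measured, the 8 of the retina and the lens crystallin gene cryaa were above background on at least 3 arrays. The signal of cryaa was 264 to 356 in DMSO eyes and 638 to 794 with RA, a rise that passed (log2 fold change 1.21, limma adjusted p = 0.0816) but not when clutch entered the fit as a block (0.175) or in any of 6 fits with 1 array left out (0.132 to 0.264), and its part in the results below was not tested. The study lists cryaa from these arrays as well. Of the 30 skeletal sarcomere genes, 25 were above background on at least 3 arrays. Among those described below, mybpha, neb and tnni2a.3 were not above it in every pool.

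Of the 61 genes, 1 rose in RA-treated eyes and none fell at a false discovery rate (FDR) of 10% in limma's moderated test with Benjamini-Hochberg adjustment over 15555 probe sets. Over the whole array 0.604% of probe sets passed as higher and 0.238% as lower. At an unadjusted p under 0.05, 9 of the genes (14.8%) were higher and 8 (13.1%) lower, beside 4.37% and 5.29% of all 8793 genes. For 11 genes (18.0%) all 3 RA arrays lay above all 3 DMSO arrays, and for 9 (14.8%) all lay below, where 7.18% and 10% of all 8793 genes separated in these directions. Without the DMSO array of clutch 1 these counts were 16 and 11 (26.2% and 18.0%), beside 12.4% and 15.7% of all genes. The smallest p that an exact permutation test can give with 3 arrays against 3 is 0.1.

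The median log2 fold change of the 61 genes, RA minus DMSO, was 0.04, close to the median of -0.02 over all 8793 genes. Skeletal genes had a median of -0.02, with 15 above 0 and 15 below, over a range from -1.42 to 1.80. At the probe sets that represent them, smooth muscle and non-muscle forms spanned only -0.26 to 0.49, with a median of 0.08 and none at an unadjusted p under 0.05. The medians of the heart genes and the regulators were 0.20 and 0.41. Of the 9 heart genes 4, and of the 7 regulators 2, lay at background on all arrays. The heart median was the value of 1 of these, cmlc1. Among the 5 genes of each class above background on at least 3 arrays, the medians were 0.28 and 0.44. Without the DMSO array of clutch 1 the medians over all genes of the 2 classes turned to -0.04 and -0.09. The median over all 9 heart genes was -0.06 without the DMSO array of clutch 3.

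**Figure D1:**
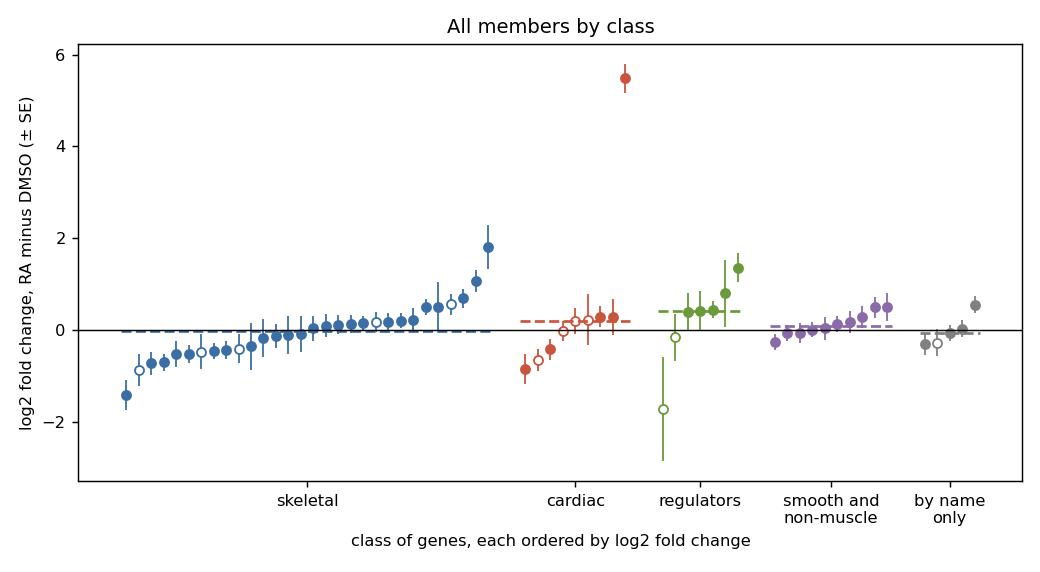
Log2 fold change of all 61 genes, RA minus DMSO, on the vertical axis, with bars of 1 standard error from limma (3 arrays per group), grouped by class along the horizontal axis and ordered within each. Filled points were above background on at least 3 arrays, open points were not, and dashed lines are class medians. The single point above 5 is myl7 at 5.48, and the 10 smooth and non-muscle genes lie between -0.26 and 0.49.

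The gene that rose was myl7, which encodes the regulatory myosin light chain of heart muscle. Its signal was 1.80, 1.58 and 0.86 in DMSO eyes of clutches 1, 3 and 4, against 50.5, 65.6 and 65.4 with RA. All DMSO arrays were thus at background and all RA arrays well above it. Against the background level the RA signal was at least 4.55-fold higher (fitted log2 fold change 5.48, standard error 0.32, limma adjusted p = 0.00149). It passed in all 6 fits with 1 array left out (adjusted p from 0.00383 to 0.0223) and when clutch entered the fit as a block (adjusted p = 0.0551). The study lists myl7 among its regulated genes from these same arrays, so the call is not independent of that choice.

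No other gene of the heart sarcomere passed the test. The genes cmlc1, for the essential light chain of heart myosin, tnnc1a, for cardiac troponin C, tnnt2c, for another troponin T of the cardiac group, and mybpc3, for cardiac myosin-binding protein C, lay at background on all 6 arrays. The highest signal among these 4 was 10.4, for mybpc3 in the DMSO eyes of clutch 3. Cardiac troponin T, tnnt2a, gave 84.3, 93.4 and 91.6 in DMSO eyes and 36.3, 40.9 and 81.4 in RA-treated eyes. Every RA value lay below every DMSO value, but that of clutch 4 only by 0.17 on the log2 scale within its clutch (-1.22, -1.19 and -0.17 in clutches 1, 3 and 4; log2 fold change -0.86, standard error 0.33, limma adjusted p = 0.528; leaving out the clutch 4 RA-treated eyes gave -1.22, with 0.169 as the adjusted p).

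The other 3 heart genes were bright in eyes of both treatments at the probe sets that represent them, and overlapped between treatments. The myosin heavy chain gene myh7 (long named vmhc, the ventricular form) gave 228, 115 and 89.1 in DMSO eyes and 172, 123 and 198 with RA (log2 fold change 0.28, limma adjusted p = 0.926, and 0.68 without the DMSO array of clutch 1). A further probe set, which myh7 shares with myh7l, lay at background on all arrays. It gave 3.3, 1.96 and 2.05 in DMSO eyes and 3.0, 1.13 and 0.71 with RA. The bright signal of myh7 was thus read by 1 probe set only. Cardiac alpha-actin genes of zebrafish are also used in skeletal muscle. The actin gene actc1a gave 562, 446 and 412 in DMSO eyes and 504, 503 and 734 with RA, where the log2 fold change of 0.28 had a 95% interval from -0.27 to 0.84. The interval for actc1a holds 0 and reaches to changes of either sign, and leaving out the clutch 4 RA-treated eyes gave 0.10.

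Heart genes outside the sarcomere were read as well. Of 7 measured, the transcription factor genes hand2, gata4, gata6, nkx2.5, tbx5a and tbx20 were at background on all 6 arrays, and gata5 was above it on 1, with signals of 1.68, 0.10 and 2.06 in DMSO eyes and 10.8, 15.4 and 7.76 in RA-treated eyes. None of the 7 passed the test (limma adjusted p = 0.374 for gata5). The lowest adjusted p was that of hand2 (0.128), with signals of 1.6 to 3.0 in DMSO eyes and 5.2 to 9.2 in RA-treated eyes, all below background. At an unadjusted p under 0.05, 2 were higher, beside 4.37% of all genes, and both lay at or near background. The study lists gata5 among its changed transcription factor genes from these arrays. Their summed signal was 11.8 to 15.3 over the DMSO arrays and 28.4 to 34.4 over the RA arrays. Apart from gata5 on that 1 array, every value in these sums lay below background, so the sums show no measurable difference. Of 8 measured liver and plasma genes, 2 rose: fgg, for fibrinogen gamma chain, from 3.70, 0.62 and 0.50 to 32.8, 213 and 198 (at least 8.44-fold higher, adjusted p = 0.0743), and cp, for ceruloplasmin, from 9.96, 13.9 and 9.71 to 29.2, 33.1 and 30.7 (adjusted p = 0.0510). Neither call held when clutch entered the fit as a block (adjusted p = 0.280 for fgg and 0.159 for cp). With 1 array left out, fgg passed only when either array of clutch 1 was dropped, and cp only without the DMSO array of clutch 3 (adjusted p up to 0.270 and 0.245). Over the whole array 0.604% of probe sets passed as higher. Of the 8 genes, 5 had log2 fold changes below 0, and the median was -0.18. The lowest was ambp, above background on 1 DMSO array only (-1.45, limma adjusted p = 0.499). The liver marker gene fabp10a stayed at background on all 6 arrays, between 1.03 and 3.18, and so did the other fibrinogen chain genes, fga and fgb. The part of heart or liver tissue in the myl7 result was not tested.

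**Figure D2:**
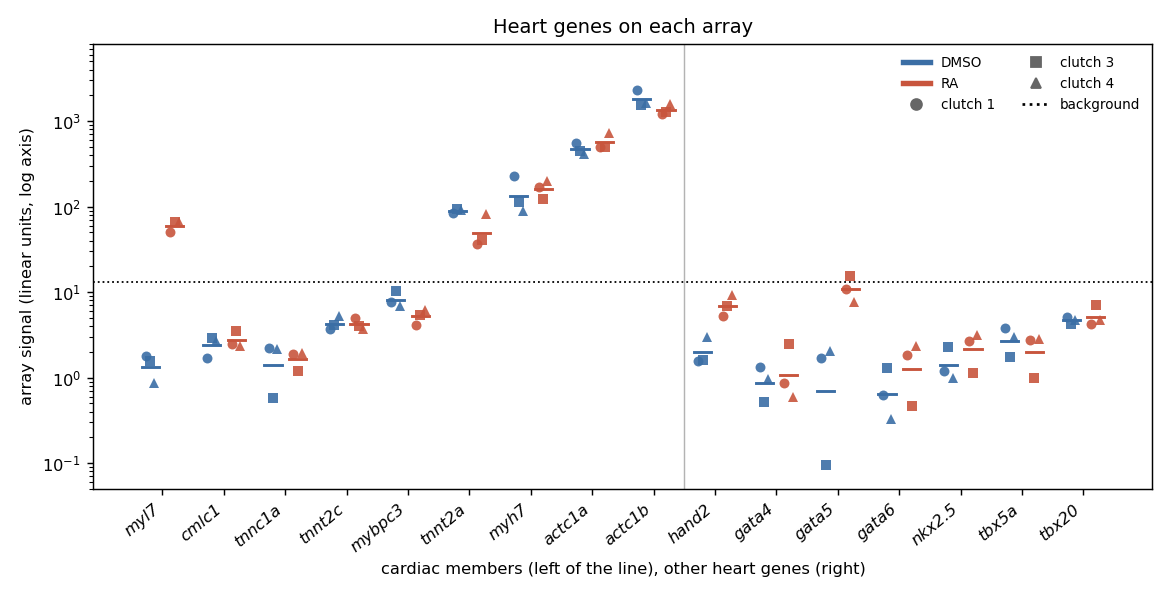
Signal on each array (logarithmic vertical axis, linear array units) for the 9 cardiac members, left of the grey line, and the 7 other heart genes measured, right of it. Blue is DMSO and red is RA, symbols mark clutches 1, 3 and 4, short bars are geometric means of 3 arrays, and the dotted line is the background of 13.2. The RA points of myl7 lie between 50.5 and 65.6 while its DMSO points lie with the silent genes below 2.

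The actin gene actc1b, the other cardiac alpha-actin, gave 2324, 1547 and 1652 in DMSO eyes and 1204, 1274 and 1604 in RA-treated eyes, so that the groups overlapped (log2 fold change -0.42, standard error 0.23, limma adjusted p = 0.709, and -0.24 without the DMSO array of clutch 1). The 8 probe sets for actc1b did not move together. Control probe sets placed along a transcript, which the array names acta1 and its annotation assigns to actc1b, gave, at the 5' end, 36.0, 70.9 and 127 in DMSO eyes and 150, 97.9 and 283 with RA (log2 fold change 1.23), and at the 3' end 2326, 1435 and 1526 in DMSO eyes and 1145, 1142 and 1503 with RA (log2 fold change -0.46). A second 5' probe set gave 125, 122 and 189 in DMSO eyes and 176, 150 and 288 with RA (log2 fold change 0.47, limma adjusted p = 0.795). The direction of the difference therefore depended on the end of the transcript that was read, and its size at the 5' end on the probe set. Neither end passed the test (adjusted p = 0.625 for the first 5' probe set and 0.719 for the 3' end).

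The ratio of the 3' to the 5' signal is a measure of how completely a transcript was copied or preserved. For actc1b, with the first 5' probe set, it was 64.5, 20.2 and 12.0 in DMSO eyes and 7.65, 11.7 and 5.30 in RA-treated eyes. It was highest in the DMSO array of clutch 1 and lower in every RA array than in every DMSO array. At the second 5' probe set the DMSO array of clutch 1 was not the lowest, with 125 against 122 in clutch 3. For gapdhs, a glycolytic enzyme gene used as the other such control, the ratio was 2.58 in that array and 1.32 to 1.75 in the remaining 5. The part of transcript completeness in the values of the other genes was not tested.

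**Figure D3:**
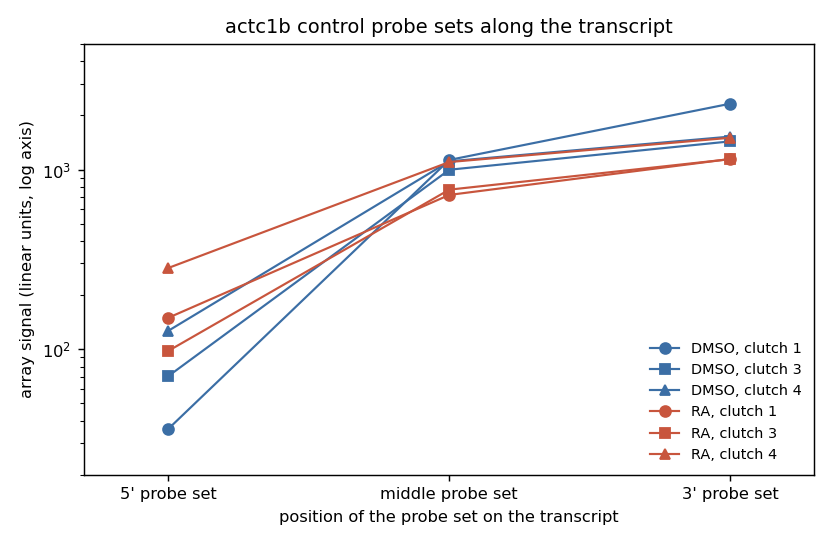
Signal of actc1b (logarithmic vertical axis, linear array units) at probe sets near the 5' end, in the middle and near the 3' end of the transcript, 1 line per array, blue for DMSO and red for RA. The DMSO array of clutch 1 has the lowest signal at the 5' probe set shown, 36.0, and the highest 3' signal, 2326. The second 5' probe set is not drawn.

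Among the regulators, myog and myod1 had higher signals in RA-treated eyes without overlap, and the others did not separate. None of the 7 passed the test. Myogenin, myog, which starts the differentiation of myoblasts, gave 9.17, 19.7 and 16.2 in DMSO eyes and 33.1, 40.7 and 36.5 in RA-treated eyes. It was below background in 1 DMSO pool, slightly above it in the others and clearly above it in all RA pools (log2 fold change 1.36, standard error 0.31, limma adjusted p = 0.208). The differences on the log2 scale were at least 1.33 in clutch 1, against the background level, and 1.05 and 1.17 in clutches 3 and 4, and without the DMSO array of clutch 1 the log2 fold change was 1.04 (adjusted p = 0.163). The call depended on the test: myog passed when variance was modeled with signal (adjusted p = 0.0784), when only probe sets above background were tested (0.0677) and when 16 was added to every signal (0.0907). The background filter asked for 3 arrays, and only 2 DMSO arrays of myog were above background. It thus kept myog with the help of the RA arrays, where its signal was higher, so the filtered call is not separate support. The study lists myog from these arrays as well, by significance analysis of microarrays (SAM) on values normalized with RMA. SAM at 10% FDR on the deposited values did not call it.

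MyoD, myod1, which commits cells to the muscle lineage, gave 14.5, 18.1 and 18.7 in DMSO eyes and 25.8, 22.4 and 21.3 in RA-treated eyes. All 6 values lay just above background, and the difference was smaller than that of myog (log2 fold change 0.44, standard error 0.18, limma adjusted p = 0.568). The other commitment genes, myf5 and myf6, lay at background on all 6 arrays, with no signal above 3.09.

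The 3 mef2 genes measured were above background on at least 5 arrays and shared 1 pattern. Signals of mef2aa were 5.28, 30.9 and 34.8 in DMSO eyes and 28.8, 27.7 and 36.9 in RA-treated eyes. Those of mef2ca were 32.3, 90.8 and 97.3 against 98.3, 85.5 and 79.7. Those of mef2d were 45.7, 112 and 134 against 123, 111 and 112. In each case the DMSO array of clutch 1 was low and the other 5 arrays lay close together. Log2 fold changes of 0.79, 0.41 and 0.38 over all arrays turned to -0.09, -0.10 and -0.09 without that array, with no call in either fit (adjusted p from 0.867 to 0.955).

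**Figure D4:**
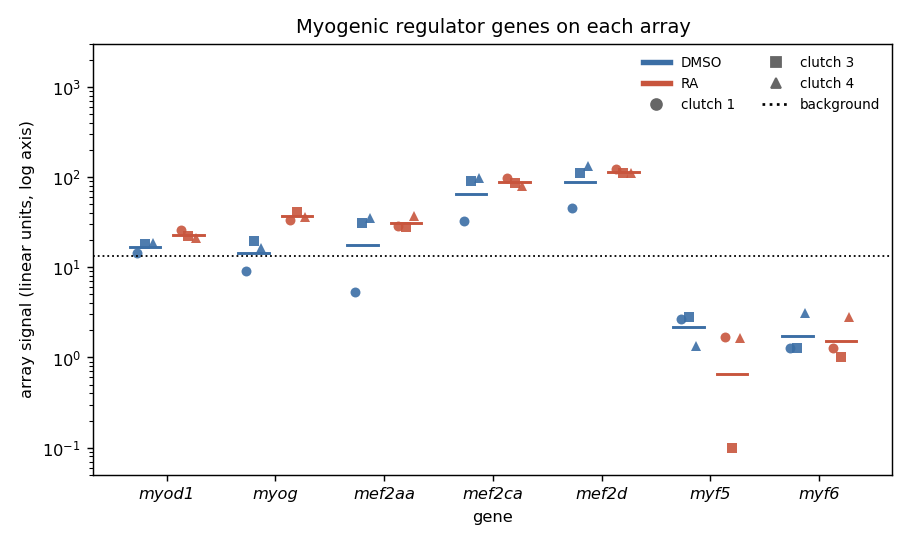
Signal on each array (logarithmic vertical axis, linear array units) for the 7 myogenic regulator genes, with DMSO in blue, RA in red, symbols for clutches 1, 3 and 4, bars for geometric means of 3 arrays and a dotted line at the background of 13.2. For myog the RA points (33.1 to 40.7) lie above the DMSO points (9.17 to 19.7), and for the mef2 genes the DMSO point of clutch 1 lies below all others.

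In the thin filament of skeletal muscle, troponin paralogs separated in opposite directions in all 3 clutches, each without passing the test. The fast troponin T gene tnnt3a gave 108, 136 and 160 in DMSO eyes and 223, 274 and 348 in RA-treated eyes. Every RA value exceeded every DMSO value, and the difference was nearly the same in each clutch, at 1.04, 1.02 and 1.12 on the log2 scale (log2 fold change 1.06, standard error 0.24, limma adjusted p = 0.217). Its paralog tnnt3b gave 382, 375 and 392 in DMSO eyes and 273, 243 and 321 with RA (log2 fold change -0.47, standard error 0.17, limma adjusted p = 0.508). The DMSO values of tnnt3b spanned a narrow range, and all RA values lay below it. Like myog, tnnt3a passed with the variance modeled on signal (adjusted p = 0.0455) and with probe sets at background left out (0.0745).

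Troponin I, the subunit that holds the filament inhibited, showed the same kind of split. The fast gene tnni2a.2 gave 39.6, 34.0 and 45.0 in DMSO eyes and 25.0, 21.8 and 25.6 with RA (log2 fold change -0.71, standard error 0.18, limma adjusted p = 0.278). Its neighbor tnni2a.4, taken up here after its values were seen, gave 39.5, 42.2 and 56.8 against 31.0, 30.3 and 33.8 (log2 fold change -0.52, adjusted p = 0.523). The signals of these genes were alike, they share a further probe set, and so they are not fully separate measurements. The paralog tnni2b.1, also taken up after its values were seen, gave 87.7, 98.8 and 128 in DMSO eyes and 173, 147 and 182 with RA (log2 fold change 0.69, standard error 0.21, adjusted p = 0.380).

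A change common to a whole array cancels in a ratio within it. The ratio of tnnt3a to tnnt3b was higher in RA-treated than in DMSO eyes by 1.53, 1.64 and 1.41 on the log2 scale in clutches 1, 3 and 4 (mean 1.53 ± 0.12, SD, n = 3). The ratio of tnni2b.1 to tnni2a.2 was higher by 1.64, 1.22 and 1.32 (mean 1.40 ± 0.22, SD, n = 3). Both pairs were picked after their values were seen, as 1 higher and 1 lower gene, which fixes the direction of the ratio, so these values are a description and were not tested.

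In the gene order of the RefSeq annotation, tnni2a.2, tnni2a.3 and tnni2a.4 follow each other, tnnt3a lies 2 genes beyond tnni2a.4, and myod1 is its immediate neighbor. Within this row, tnnt3a and myod1 had higher and tnni2a.2 and tnni2a.4 lower signals in RA-treated eyes, while tnni2a.3 was at background in all DMSO eyes and above it on 2 RA arrays (at least 1.04-fold higher, limma adjusted p = 0.568). The other paralogs lie together too, with 2 genes between tnni2b.1 and tnnt3b. There the first was higher and the second lower. Neighbors thus differed in direction within both rows.

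The remaining thin filament genes differed less. Over all 10 measured, none passed, 3 lay above and 3 below at an unadjusted p under 0.05 (4.37% and 5.29% of all genes), and the median log2 fold change was 0.14. Troponin C of fast muscle, tnnc2.2, the calcium sensor that all fast troponin complexes need, spanned 162 to 180 in DMSO eyes and 168 to 229 with RA (log2 fold change 0.18). Skeletal alpha-actin, acta1a, gave 196, 56.0 and 53.0 in DMSO eyes and 107, 101 and 152 in RA-treated eyes, and here too the DMSO array of clutch 1 stood alone, on the high side (log2 fold change 0.50, limma adjusted p = 0.898, and 1.11 without it, adjusted p = 0.225). These genes were chosen for display outside the naming rule.

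In the thick filament, light chain genes lay on both sides of 0 and none passed the test. The light chain gene myl13 had the largest difference of the skeletal genes, with 15.7, 29.0 and 58.4 in DMSO eyes and 108, 86.1 and 122 in RA-treated eyes. Every RA value exceeded every DMSO value, but the DMSO values were far apart and the differences within clutches 1, 3 and 4 ran from 2.78 over 1.57 to 1.07 on the log2 scale (log2 fold change 1.80, standard error 0.48, limma adjusted p = 0.297). Without the DMSO array of clutch 1 it was 1.34 (adjusted p = 0.348). It passed only when variance was modeled with signal (adjusted p = 0.0695).

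The essential light chain of fast muscle, myl1, gave 85.7, 140 and 139 in DMSO eyes and 64.8, 79.8 and 70.3 in RA-treated eyes, with no overlap (log2 fold change -0.73, standard error 0.25, limma adjusted p = 0.461). The regulatory light chain gene myl10 gave 175, 250 and 307 in DMSO eyes and 135, 152 and 219 in RA-treated eyes, where the groups overlapped although each clutch was lower with RA (log2 fold change -0.53, adjusted p = 0.723). The bright fast regulatory light chain gene mylpfa gave 384, 449 and 537 against 505, 449 and 535 (log2 fold change 0.13, with a 95% interval from -0.33 to 0.59, and 0.01 without the DMSO array of clutch 1). Of these light chains only mylpfa, at the probe set that represents it, had nearly equal signals in both treatments of clutches 3 and 4. A second probe set of mylpfa gave 344 and 300 in DMSO eyes of these clutches against 304 and 248 with RA. Over all arrays its log2 fold change was 0.01, with a 95% interval from -0.94 to 0.97.

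Myosin-binding protein H, mybpha, a protein of the thick filament, had the lowest log2 fold change of the skeletal genes. It gave 33.1, 21.3 and 26.0 in DMSO eyes and 15.1, 8.37 and 7.57 in RA-treated eyes, above background in all DMSO eyes and in 1 of 3 RA pools (log2 fold change -1.42, standard error 0.32, limma adjusted p = 0.208). It was lower by 1.13 on the log2 scale in clutch 1 and, against the background level, by at least 0.69 and 0.98 in clutches 3 and 4. It passed with the variance modeled on signal (adjusted p = 0.0886) and with probe sets at background left out (0.0671). That filter kept mybpha through the 3 DMSO arrays, where its signal was higher, so the filtered call is not separate support. The study lists mybpha too, under an older name, from these arrays. SAM at 10% FDR on the deposited values did not call it. The fast myosin heavy chain gene myhz1.3, outside the naming rule, gave 101, 31.2 and 33.3 against 52.6, 27.4 and 34.6, with the DMSO array of clutch 1 alone on the high side (log2 fold change -0.36, and 0.19 without it). A probe set shared by 6 fast heavy chain genes, which names no single gene, gave 368, 274 and 259 against 259, 259 and 296 (log2 fold change -0.13, adjusted p = 0.935). Of the 9 thick filament genes, none passed, 1 was higher and 2 lower at an unadjusted p under 0.05 (4.37% and 5.29% of all genes), and the median was -0.36.

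Genes of the Z-disc and of the elastic and anchoring filaments were dim, apart from the desmin gene desma with signals of 58.9 to 88.5 (named outside the rule). Of 9 measured, none passed the test and 6 were above background on at least 3 arrays. The log2 fold changes of these 6 ran from -0.14 to 0.50. The lowest of all 9, -0.87, was that of myoz1b, which lay at background on all arrays. Nebulin, neb, the ruler of the thin filament, gave 17.6, 13.9 and 12.9 in DMSO eyes and 20.1, 21.0 and 21.1 in RA-treated eyes, close to background but without overlap (log2 fold change 0.50, limma adjusted p = 0.499, named outside the rule). The muscle creatine kinase genes were bright and steady. For ckmb, signals were 232, 280 and 302 in DMSO eyes and 315, 309 and 304 with RA (log2 fold change 0.20, with a 95% interval from -0.21 to 0.61, and 0.09 without the DMSO array of clutch 1). The groups of ckmb did not overlap, but in clutch 4 they differed by only 0.01 on the log2 scale.

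**Figure D5:**
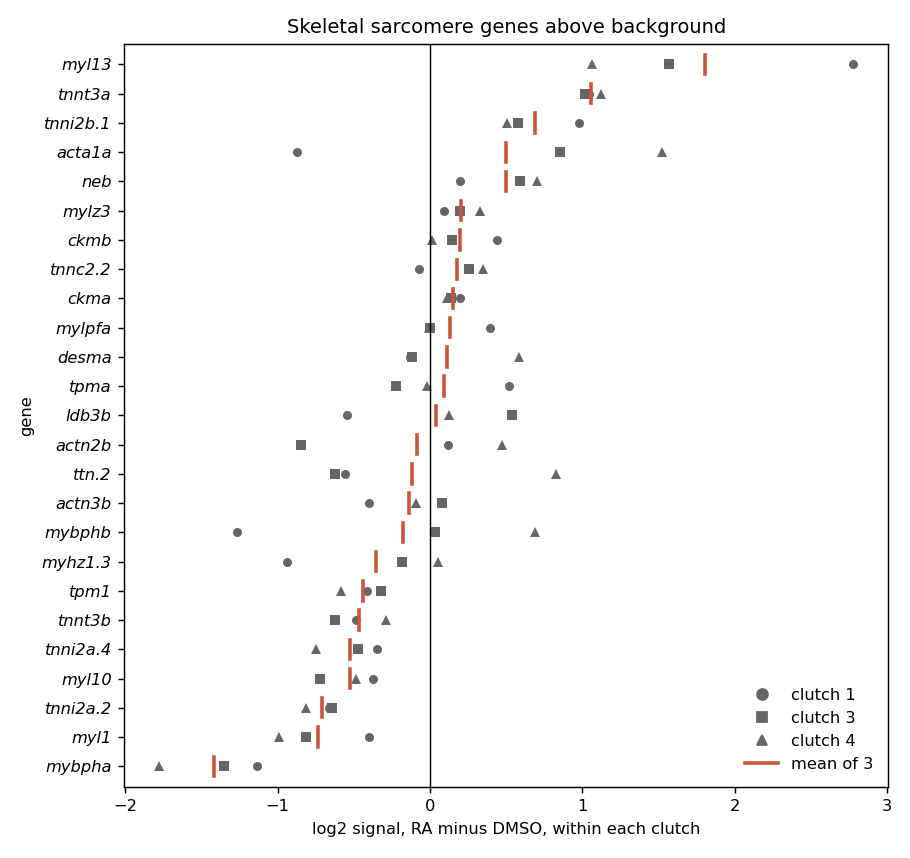
Difference in log2 signal, RA minus DMSO, within each clutch (grey symbols) and its mean over 3 clutches (red bar) on the horizontal axis for the 25 skeletal sarcomere genes above background on at least 3 arrays, 1 gene per line. For tnnt3a the clutches lie between 1.02 and 1.12, for tnnt3b between -0.63 and -0.29, and for mybpha, plotted from its measured signals also where these were at background, between -1.78 and -1.13, while acta1a and mybphb have clutch 1 on the opposite side of 0 from clutches 3 and 4.

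The smooth muscle and non-muscle forms, which serve in smooth muscle and in the cytoskeleton of other cells, mostly differed little between treatments: all 10 were above background on at least 3 arrays and none passed. The regulatory light chain gene myl12.1 gave 1095, 1154 and 1101 in DMSO eyes and 1387, 1288 and 1022 with RA (log2 fold change 0.13). Tropomyosin 3, tpm3, gave 839, 885 and 916 against 945, 837 and 739 (log2 fold change -0.07, with a 95% interval from -0.48 to 0.33). The groups overlapped for both. The essential light chain gene myl6 and the alpha-actinin gene actn1 had log2 fold changes of 0.28 and 0.04 (limma adjusted p = 0.850 and 0.993), which were 0.06 and -0.08 without the DMSO array of clutch 1. Only the myosin kinase gene mylka, named outside the rule, separated as higher, where 7.18% of all 8793 genes did. It did so at both of its probe sets (log2 fold change 0.49 and 0.61, limma adjusted p = 0.648 and 0.490). The unadjusted p of the second was 0.0292.

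Of the 5 genes taken by name, mylipa, for a ubiquitin ligase that binds myosin light chains and degrades lipoprotein receptors, gave 327, 413 and 312 in DMSO eyes and 547, 513 and 467 in RA-treated eyes. All RA values lay above all DMSO values (log2 fold change 0.55, standard error 0.18, limma adjusted p = 0.461). The mitochondrial creatine kinase gene ckmt2a, a bright transcript at 1694 to 2077 in DMSO eyes and 1729 to 2268 in RA-treated eyes, had a log2 fold change of 0.02. For ckmt1 and the methyltransferase gene smyd2a it was -0.07 and -0.30 (adjusted p = 0.966 and 0.833).

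Muscle genes outside the sarcomere were taken from a list of 64 names for calcium handling, energy use, assembly, the neuromuscular junction and muscle progenitors, of which 33 were measured. In RA-treated eyes 3 of them fell, all parvalbumins, the calcium buffers that speed the relaxation of fast fibers, and none rose. Over all probe sets 0.238% passed as lower and 0.604% as higher. The study lists parvalbumins from these arrays. The log2 fold changes were -1.91 for pvalb1, -2.28 for pvalb2 and -2.02 for pvalb4 (limma adjusted p = 0.0266, 0.0220 and 0.0203). When clutch entered the fit as a block none of the 3 passed (adjusted p = 0.173, 0.159 and 0.101), nor did they without the RA array of clutch 3 (0.112, 0.104 and 0.114). Leaving out the DMSO array of clutch 3 or the RA array of clutch 4, pvalb1 missed the threshold as well (0.124 and 0.131).

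The median log2 fold change of the 33 genes was -0.02, and 4 separated as higher and 8 as lower, where 7.18% and 10% of all genes did. Among the lower were the calcium pump gene atp2a1l, with 67.7, 34.7 and 21.1 in DMSO eyes against 9.65 in clutch 1 and 11.5 in clutch 4, both under background, with clutch 3 also below every DMSO value (log2 fold change -1.67, limma adjusted p = 0.291), and pvalb3, with 30.3, 17.2 and 19.9 against 10.1, 4.01 and 6.96 (at least 1.65-fold lower, adjusted p = 0.208). Myoglobin, mb, gave 1554, 1099 and 1402 in DMSO eyes and 1321, 1375 and 1712 with RA (log2 fold change 0.13, limma adjusted p = 0.940). The slow myosin heavy chain gene smyhc1 gave 39.3, 22.6 and 25.0 against 44.6, 47.6 and 45.2 without overlap (log2 fold change 0.70, adjusted p = 0.477). The genes fbxo32 and trim63a, for the ubiquitin ligases atrogin-1 and MuRF1 that mark muscle protein breakdown, had higher signals in all RA-treated eyes. Signals of fbxo32 were 9.70, 11.1 and 7.35 against 29.1, 19.6 and 23.6 (at least 1.80-fold higher, adjusted p = 0.112), and those of trim63a were 21.7, 24.2 and 20.3 against 57.8, 36.7 and 36.5 (log2 fold change 0.95, adjusted p = 0.256). The related genes trim63b and trim55a of the same list did not rise with them. The first lay at background on all 6 arrays. The second was above it on 1 DMSO array only and overlapped (log2 fold change 0.09, adjusted p = 0.990). The genes named in this paragraph were chosen after their values were seen. Of 3 smooth muscle genes that are not among the 61, acta2, tagln and smtnb, none passed and all overlapped. Nor did any of 6 red blood cell genes or any of 5 genes of the periocular mesenchyme pass. The summed signal of the 6 was 2055 to 3000 over the DMSO arrays and 1523 to 1924 over the RA arrays. Most of it came from the globin genes hbae3 and hbbe2 (log2 fold change -0.59 and -0.54, adjusted p = 0.539 and 0.585). Of the 6, 4 lay below 0 and 2 above, and only hbae3 separated, where 10% of all genes did as lower. The summed signal of the 5 mesenchyme genes was 440 to 653 against 456 to 552, made up of differences of both signs: log2 fold changes were -1.60 for prrx1a and -1.59 for prrx1b (adjusted p = 0.112 and 0.117) and 0.61 for foxc1a (adjusted p = 0.486), all without overlap. The study lists prrx1a and prrx1b as lower with RA on these arrays. The part of blood or mesenchyme in the values above was not tested.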

How the data were processed

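The deposited values are linear intensity values of 15617 probe sets on Affymetrix zebrafish arrays. According to the methods the authors amplified 80 ng of RNA per pool and normalized with RMA, but the deposited intensity values are not on its log2 scale, and all arrays share a trimmed mean (2% cut at each end) of 125. They were used as log2 values. After 62 hybridization controls were removed, 15555 probe sets were tested in limma 3.58.1 (R 4.3.3), two-sided, at 10% FDR. Symbols came from the annotation table of the array (10802 probe sets with 1 symbol), all 61 genes matched RefSeq by gene ID, and its assembly served for gene order only. Means ± SD are over the RA minus DMSO differences within 3 clutches, and the number of arrays limits the precision. Deviations from the group means of same-numbered arrays correlated at 0.18, 0.40 and 0.29 (numbers 1, 3 and 4), and the numbers were read as clutches. The methods state that clutches were split between the treatments, but not that the sample numbers mark them. A fold from background is taken against 13.2 per array. Genes named are those that passed, all regulators, the 4 brightest of each other class and the 5 highest and 5 lowest log2 fold changes among genes above background. The members and lists were chosen with earlier results of these data known. Alternatives were a clutch block, a variance trend, SAM (20 relabelings), 5% and 20% FDR, quantile and median scaling, a background filter, adding 16, the mean of probe sets, and leaving out each array.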

Additional observations from a re-analysis of the deposited data

How the results depend on the processing

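With the clutch, as read from the sample numbers, as a replicate block, 1 of the 61 genes passed, as without it. Of the 33 muscle genes outside the sarcomere 0 passed in place of 3. The calls of fgg and cp were lost too (adjusted p = 0.280 and 0.159), and that of cryaa as well (0.175), and it changed no other call described here. The number of the 61 genes that passed was 5 with a variance trend (mybpha, myl13, myl7, myog and tnnt3a), 4 with the background filter (the same genes without myl13), 2 with 16 added (myl7 and myog), and 1, always myl7, with SAM, 5% or 20% FDR, quantile or median scaling, the mean of probe sets and each array left out. The background filter tested 49 of the 61 genes. It kept myl7 only through its 3 RA arrays and mybpha through its 3 DMSO arrays, where each was higher. For myog, 3 RA arrays but only 2 DMSO arrays were above background, so it too needed the arrays where it was higher. The filtered calls of myl7, mybpha and myog are therefore not separate support. Calls over the whole array ranged from 45 to 291. Of the 33 genes, 6 passed with the variance trend and 0 to 3 with 1 array left out. The filter kept 23 of them, of which 6 passed. It kept fbxo32 only through the RA arrays and pvalb3 only through the DMSO arrays, where each was higher. The median of all 9 heart genes, 4 of them at background on all arrays, was 0.0031 with 16 added. It ran from -0.056 to 0.12 with 1 array left out. The log2 fold change of actc1b was 0.036 as the mean of its probe sets, which include those of the 5' end. Among the genes named by the rule, log2 fold changes changed sign with 1 array left out for mef2aa (-0.086 to 1.27), mef2ca (-0.10 to 0.69) and mef2d (-0.093 to 0.69). The same held for myh7 (-0.0026 to 0.68), actn1 (-0.15 to 0.25), ckmt1 (-0.16 to 0.050), ckmt2a (-0.10 to 0.10), tpm3 (-0.16 to 0.016) and myf6 (-0.59 to 0.26). Some genes outside the rule changed sign too. Without the DMSO array of clutch 1, myhz1.3 went from -0.36 to 0.19 and mybphb from -0.18 to 0.29. The cause of these changes was not tested. Members at background on all arrays have no measurable difference at this signal.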
